A study of Rattus norvegicus with 6 samples.

Results

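Nuclear receptors are transcription factors that most often respond to small fat-soluble ligands, and the aryl hydrocarbon receptor (AhR) is an unrelated ligand-activated factor of the bHLH-PAS family that senses planar aromatic compounds. The 37 genes described here encode AhR, its partner ARNT and 35 nuclear receptors, chosen by name. Of the 37, 35 were among the 15645 genes with a probe named through its transcript accession, with 70 probes in all among 61537. No probe was matched to Rora or Hnf4g. The tissue was the renal cortex of male Sprague-Dawley (Crl:CD(SD)) rats bought at 5 weeks of age. One group of 3 rats received 300 mg/kg/day of thiobis(6-tert-butyl-m-cresol) in its 4,4' form, a phenolic antioxidant with a sulfur bridge, for 4 weeks (TBBC rats), and the other group of 3 received its corn oil vehicle for 4 weeks. Each rat's RNA was labelled with Cy3 and hybridised to 1 Agilent array, and the series calls the replicates biological. The question the design poses is which transcripts differ in the cortex after TBBC.

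Most nuclear receptors bind DNA as dimers, many with a retinoid X receptor (RXR) as the partner, and exchange corepressors for coactivators when a ligand binds. AhR sits in the cytoplasm with chaperones until a ligand binds, then enters the nucleus, pairs with ARNT and switches on xenobiotic-metabolising enzymes. In the kidney cortex these receptors are known for setting fatty acid oxidation, sodium transport, and the uptake and efflux of organic ions in the proximal tubule, the segment that makes up most of the cortex.

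Values below are levels on a log2 scale, the processed signal of a probe over the 75th percentile of its array, so that 0 is the 75th percentile. They compare arrays for 1 probe and do not rank genes. A gene stands by its brightest tested probe. In total, 32 of the 37 were tested, that is, had a probe well above background on every array of at least 1 group, and 31 had a probe above background on all 6 arrays. The other one, Esr1, was above background on TBBC 1 alone of the TBBC arrays and on all 3 vehicle arrays. The 3 other genes with probes were not tested. Nr4a3 and Nr5a2, which encodes a receptor of bile acid and steroid synthesis, were above background on TBBC 3 alone. Esrrb, an estrogen-related receptor, was above background on TBBC 3 and vehicle 3. On every array 67.1% to 70.9% of all probes were above background, with the lowest share and the lowest 75th percentile of signal on TBBC 2. TBBC 2 and TBBC 3 lay on slide 2 and scan 2, while TBBC 1 and all vehicle arrays lay on slide 1 and scan 1.

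Among the 32 tested genes, Ppard alone passed the threshold (limma, adjusted p under 0.05 over 32956 transcripts), and it fell. The background was 0.276% of all transcripts called lower and 0.255% called higher. Of these 32956 transcripts, 12298 were named genes and the rest unnamed probes, so no background share here is over named genes alone. Log2 fold changes (TBBC minus vehicle) were below 0 for 25 of the 32 receptor genes (78.1%) and above 0 for 7, with a median of -0.20. Over all transcripts tested, 53.5% were below 0 and the median was -0.02. The groups did not overlap in 12 genes. In 11 of these the TBBC rats were lower, or 34.4% of the 32 against a background of 15.2%. In the other one, Rarg, they were higher, against a background of 13.1%. At an unadjusted p under 0.05 there were 9 genes, all lower in TBBC (28.1%, background 10.4%), and 8 of them did not pass after adjustment. Differences of at least 1 on the log2 scale occurred in 2 genes, Ppard and Esr1 (Esr1 stayed under 1 with normexp background correction and with slide as a fixed term), and differences of 0.5 to 1 in 5, while the other 25 were smaller. Esr1 is also counted in the 25 below 0, the 11 without overlap and the 9 at an unadjusted p under 0.05. It was tested through the vehicle arrays alone, so the filter favoured a lower value in TBBC. The background shares used the same filter and were not recomputed without such transcripts. With only probes above background on every array, 24 of 31 receptor genes lay below 0, with a median of -0.19. The 3 TBBC rats did not contribute alike. The median deviation of the 32 genes from their vehicle means was -0.16 for TBBC 1, -0.34 for TBBC 2 and -0.06 for TBBC 3. The median log2 fold change of the 32 was -0.08 without TBBC 2 and -0.06 with normexp background correction. In bulk cortex, fewer cells of a type and less RNA per cell cannot be told apart.

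**Figure D1:**
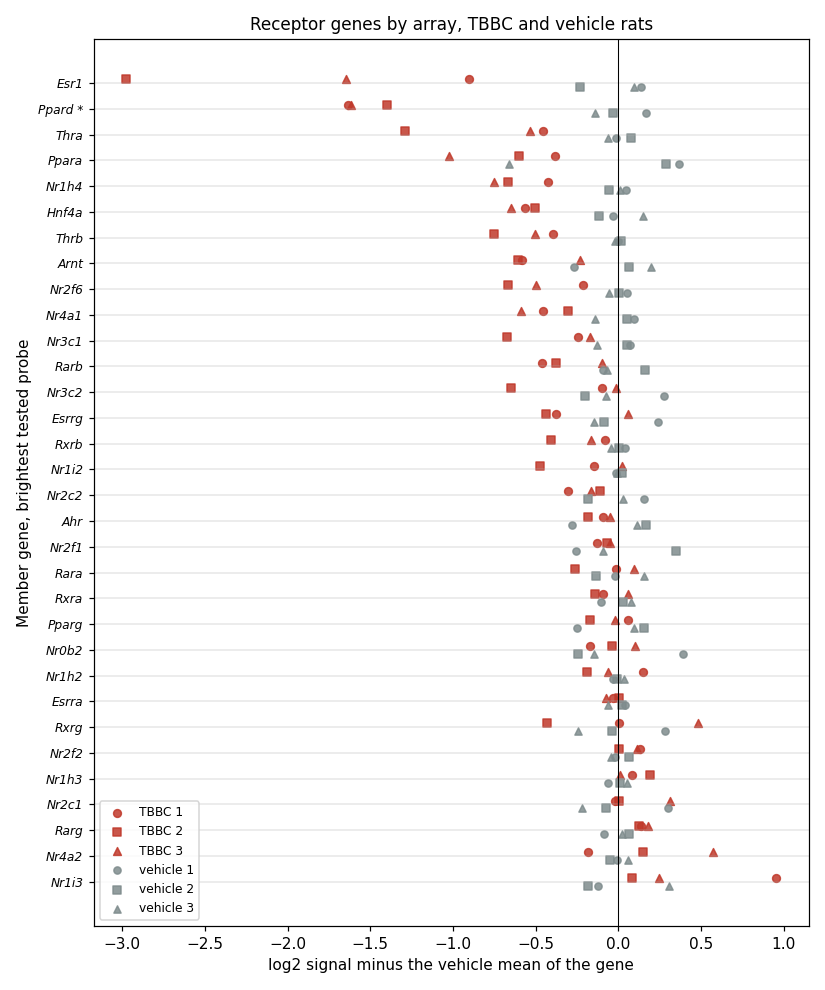
Each row is a receptor gene, and each point is 1 rat's log2 signal minus the gene's vehicle mean (horizontal axis, log2 units), TBBC in red and vehicle in grey, with replicates 1 to 3 as circles, squares and triangles. The genes are ordered by log2 fold change, and the asterisk marks Ppard, which passed the threshold; most rows near the bottom overlap between the groups.

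Peroxisome proliferator-activated receptors (PPARs) are fatty acid sensors that pair with RXR. Ppard encodes PPAR delta, which is expressed in most tissues and promotes fatty acid use. Its level was -2.65, -2.41 and -2.64 in TBBC 1, 2 and 3, against -0.85, -1.05 and -1.16 in vehicle 1, 2 and 3. All TBBC rats lay well below all vehicle rats, with an SD of 0.13 in TBBC and of 0.16 in vehicle (n = 3 each). The fall was 2.93-fold, with a log2 fold change of -1.55 ± 0.13 (SE; limma, adjusted p = 0.0180). When each tested probe was fitted on its own, where 0.793% of 41992 probes were called, all 3 Ppard probes were called. They had log2 fold changes of -1.55, -1.54 and -1.10, with adjusted p-values (limma) of 0.0158, 0.0407 and 0.0288. The direction held in all 20 alternatives and the call in 14. Without vehicle 1, 2 or 3 the log2 fold changes were -1.46, -1.57 and -1.62, but the adjusted p-values (limma) were 0.102, 0.138 and 0.0853. On the slide that holds both groups, TBBC 1 alone gave -1.63 (limma, adjusted p = 0.0623), a fit whose spread is that of the 3 vehicle rats and is taken to hold for TBBC 1 too. The adjusted p (limma) was 0.101 with slide as a fixed term.

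Ppara encodes PPAR alpha, the receptor of peroxisome proliferators and the main driver of fatty acid oxidation in the proximal tubule. Its level was 0.01, -0.21 and -0.64 in the TBBC rats, against 0.76, 0.68 and -0.27 in the vehicle rats. Vehicle 3 fell below TBBC 1 and TBBC 2, so the groups overlapped, and the log2 fold change of -0.67 ± 0.32 did not pass (limma, adjusted p = 0.303). With slide as a fixed term or on the shared slide it was -0.38. The other tested Ppara probe gave -0.61. Pparg, the PPAR of adipocytes and of the collecting duct, had a log2 fold change of -0.04 with a 95% interval of -0.40 to 0.31, and its sign turned in 5 of 20 alternatives. None of 30 classical PPAR alpha targets passed (limma; 16 above 0, 14 below 0, median 0.00). The largest differences were in Fabp1, a liver-type fatty acid carrier, at -2.30 ± 0.97, and in Fabp3, the heart-type carrier, at -1.01 ± 0.16. Their adjusted p-values (limma) were 0.258 and 0.0609. Fabp1 was at -4.13, -4.51 and -4.57 in the TBBC rats and varied widely in the vehicle rats, at 0.13, -3.98 and -2.48.

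**Figure D2:**
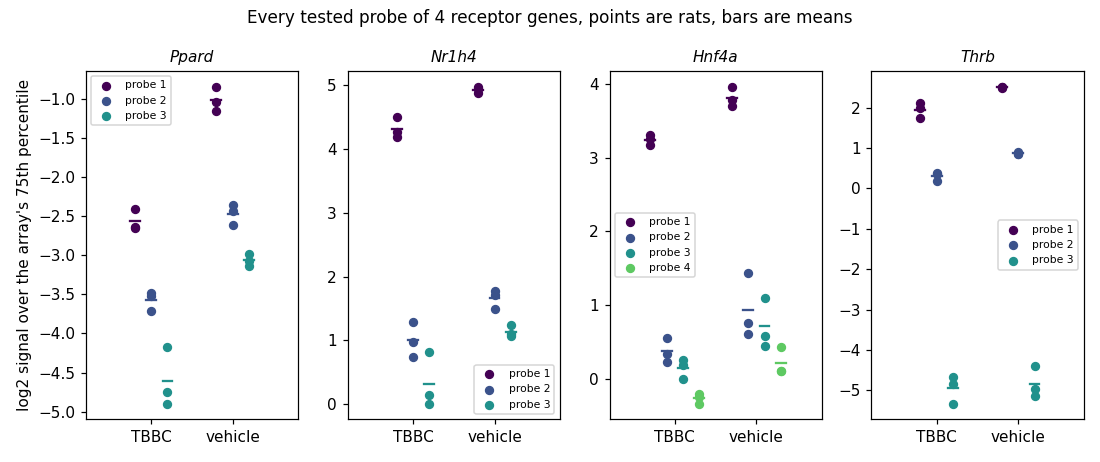
Every tested probe of Ppard, Nr1h4, Hnf4a and Thrb is plotted as log2 signal over the array's 75th percentile (vertical axis), with TBBC left of vehicle, 1 point per rat and bars at group means. Group means differed by at least 1.102 for the Ppard probes, by 0.61 to 0.81 for Nr1h4 and by 0.47 to 0.57 for Hnf4a, while the third Thrb probe overlapped between the groups.

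AhR and its partner showed no call. Ahr had a log2 fold change of -0.11 ± 0.15 (SE), with a 95% interval of -0.46 to 0.25. Arnt, which encodes the obligate dimer partner of AhR and of hypoxia-inducible factors, was at -4.64, -4.67 and -4.29 in the TBBC rats and at -4.33, -4.00 and -3.86 in the vehicle rats. TBBC 3 lay just above vehicle 1, so the groups overlapped, and the log2 fold change was -0.47 ± 0.17 (limma, adjusted p = 0.206). With normexp background correction it was -0.07 (limma, adjusted p = 0.733). Of 13 listed chaperones, partners and classical targets of AhR, 9 were tested, while Cyp1a1, Cyp1a2, Cyp1b1 and Tiparp were not. Among the 9 tested, 1 passed, upwards, and the median was 0.20. It was Nqo1, a quinone reductase that AhR and the antioxidant factor Nrf2 both switch on. Nqo1 was at 2.26, 1.595 and 1.11 in the TBBC rats, against -3.03, -3.17 and -2.41 in the vehicle rats, a log2 fold change of 4.53 ± 0.34 (limma, adjusted p = 0.0140). Ahrr, the AhR repressor and a target that AhR induces directly, was at -1.51, -3.35 and -1.59 in the TBBC rats and at -1.51, -1.58 and -1.43 in the vehicle rats. TBBC 2 was thus the one Ahrr value apart from the rest, and the log2 fold change of -0.64 ± 0.49 did not pass (limma, adjusted p = 0.513).

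The xenobiotic sensors pregnane X receptor (PXR, Nr1i2) and constitutive androstane receptor (CAR, Nr1i3) induce drug-metabolising enzymes and efflux pumps, chiefly in liver. Nr1i2 had a log2 fold change of -0.20 (95% interval -0.56 to 0.16). Nr1i3 had 0.43 ± 0.26, the highest of the 32, yet the groups overlapped and it did not pass (limma, adjusted p = 0.416). It was 0.16 without TBBC 1, 0.27 with normexp background correction, and 0.95 with slide as a fixed term or on the shared slide. Only 1 of 4 Nr1i3 probes was bright enough to test. Of 20 listed PXR and CAR targets, 15 were tested, while Cyp2b1, Cyp3a2, Cyp3a18, Cyp3a62 and Sult2a1 were not. Among the 15, 10 lay above 0, and Cyp2b2, Cyp2b3, Cyp2a1, Cyp2c11 and Ces2c lay below 0. Cyp3a9, 1 of the 10, was above background on no vehicle array. The median was 0.37, and 1 target passed, upwards. It was Abcc3, an efflux pump of the basolateral membrane, at 0.46, 0.13 and -0.36 in the TBBC rats against -1.93, -1.74 and -1.78 in the vehicle rats. Its log2 fold change was 1.90 ± 0.22 (limma, adjusted p = 0.0343). The apical pump Abcc2 was at 6.36, 5.86 and 4.07 in the TBBC rats and at 2.05, 1.76 and 1.89 in the vehicle rats. The groups did not overlap, but the TBBC rats differed among themselves by over 2, and its log2 fold change of 3.53 ± 0.57 did not pass (limma, adjusted p = 0.0622). Cyp2c11, a male-specific cytochrome P450 of rat liver, was at -2.18, -4.96 and -4.29 in the TBBC rats and at -1.51, -1.54 and 1.37 in the vehicle rats, a log2 fold change of -3.25 ± 1.02 (limma, adjusted p = 0.165).

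Nr1h4 encodes the farnesoid X receptor (FXR), the bile acid receptor. It was at 4.50, 4.26 and 4.18 in the TBBC rats, against 4.98, 4.88 and 4.94 in the vehicle rats. Every TBBC rat lay below every vehicle rat, by a mean of 0.61 ± 0.12, but the difference did not pass (limma, adjusted p = 0.0831). The 3 Nr1h4 probes gave -0.61, -0.66 and -0.81. Nr1h4 did pass in 2 of the 20 alternatives, normexp background correction and eBayes with trend and robust estimation (limma, adjusted p = 0.0462 and 0.0338). The oxysterol receptors LXR alpha (Nr1h3) and LXR beta (Nr1h2), which raise cholesterol efflux, had log2 fold changes of 0.09 and -0.04, with 95% intervals of -0.16 to 0.34 and -0.33 to 0.26. Nr0b2, the small heterodimer partner that FXR induces and that represses other receptors, had -0.04 (95% interval -0.50 to 0.43) and its sign turned without vehicle 1 (0.16) and without TBBC 1 (0.03). Of 16 listed LXR and FXR targets, 11 were tested, Nr0b2 among them, while Srebf1, Scd, Abcg5, Abcg8 and Slc51b were not. None of the 11 passed (limma), with a median of -0.02. Abcb11, the bile salt export pump, had 2.19 ± 0.42 (limma, adjusted p = 0.0791) and was above background on 1 of 3 vehicle arrays. Apoe, the lipoprotein that LXR induces in macrophages, had -1.28 ± 0.25 (limma, adjusted p = 0.0836), and its groups did not overlap.

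Hepatocyte nuclear factor 4 alpha (Hnf4a) is a receptor that maintains the differentiated state of proximal tubule cells. It was at 3.25, 3.31 and 3.17 in the TBBC rats, against 3.78, 3.70 and 3.96 in the vehicle rats. The groups did not overlap, and the log2 fold change of -0.57 ± 0.11 did not pass (limma, adjusted p = 0.0845). All 4 Hnf4a probes were lower in TBBC, by 0.47 to 0.57, and the brightest probe passed in the same 2 alternatives as Nr1h4 (limma, adjusted p = 0.0462 and 0.0369). Proximal tubule markers (Slc34a1, Slc22a6, Lrp2, Cubn, Slc5a2, Slc13a3 and Aqp1) were all measured, with none called and log2 fold changes of -0.77 to -0.02. Marker levels were also summed per rat, as linear signals added and then put on the log2 scale, so that the brightest genes weigh most. The sum was lower without overlap, at 10.107 to 10.475 in the TBBC rats and 10.528 to 10.583 in the vehicle rats. The part of this marker difference in the values of Hnf4a and Nr1h4 was not tested. Of 21 tested HNF4 alpha targets of proximal tubule, 1 rose and none fell past the threshold, with a median of -0.18 and 16 below 0. The gene that rose was Slc17a1, a sodium-phosphate and urate transporter, at 3.51, 3.10 and 3.19 in the TBBC rats against 1.62, 1.40 and 1.67 in the vehicle rats. Its log2 fold change was 1.70 ± 0.15 (limma, adjusted p = 0.0181), opposite in sign to that of Hnf4a. Hnmt, histamine methyltransferase, was at 0.75, -4.47 and -5.04 in the TBBC rats and at 0.08, 0.87 and 2.75 in the vehicle rats, so that TBBC 1 overlapped with the vehicle rats (log2 fold change -4.15 with a 95% interval of -8.03 to -0.28; limma, adjusted p = 0.225).

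Thyroid hormone receptors keep target genes repressed until the hormone binds. Both of their genes lay lower in TBBC without passing. Thra (receptor alpha) was at 0.39, -0.44 and 0.31 in the TBBC rats, against 0.83, 0.92 and 0.78 in the vehicle rats. The groups did not overlap and TBBC 2 was the lowest. The log2 fold change was -0.76 ± 0.23 (limma, adjusted p = 0.158). It was -0.49 without TBBC 2, and -0.46 with slide as a fixed term or on the shared slide. Thrb (receptor beta) was at 2.11, 1.75 and 2.00 in the TBBC rats and at 2.50, 2.52 and 2.48 in the vehicle rats. These groups did not overlap either, with a log2 fold change of -0.55 ± 0.12 (limma, adjusted p = 0.0999). A further Thrb probe gave -0.56, while the dimmest gave -0.10 with overlapping groups. In the RefSeq gene table Thra overlaps on the opposite strand with Nr1d1, the clock repressor REV-ERB alpha. Nr1d1 was at -0.93, -0.86 and -1.02 in the TBBC rats and at -3.09, -3.04 and -1.29 in the vehicle rats, a log2 fold change of 1.54 ± 0.48 (limma, adjusted p = 0.164). The groups did not overlap, vehicle 3 lay near the TBBC rats, and any link between the signals of these overlapping genes was not tested.

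Thyroid hormone targets and handling genes had the lowest median of the 12 gene lists, -0.53 over 12 tested genes, with 10 below 0. Of these, 1 fell past the threshold. It was Dio1, the deiodinase that converts thyroxine to active hormone, at 2.98, 2.46 and 1.67 in the TBBC rats against 4.79, 4.76 and 4.93 in the vehicle rats. The log2 fold change was -2.46 ± 0.32 (limma, adjusted p = 0.0449), and the TBBC rats spread more widely (SD 0.66) than the vehicle rats (SD 0.09). The median deviation of the list was -0.53 in TBBC 1, -0.53 in TBBC 2 and -0.52 in TBBC 3. Its median log2 fold change was -0.63, -0.42 and -0.40 without TBBC 1, 2 and 3, and -0.53 on the shared slide. Slco4c1, a thyroid hormone and organic anion transporter, had -2.53 ± 0.60 (limma, adjusted p = 0.109) and was above background on 1 of 3 TBBC arrays. Ttr, the plasma carrier of thyroid hormone, had -4.03 ± 1.75 (limma, adjusted p = 0.269). Ttr was at -4.38, -3.89 and -8.14 in the TBBC rats and at 1.63, -4.34 and -1.61 in the vehicle rats, with overlap.

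Retinoic acid receptors (RARs) bind all-trans retinoic acid, and RXRs are their obligate partners and those of PPARs, FXR, LXRs, PXR and the thyroid receptors. None of the 6 genes passed (limma). Log2 fold changes were -0.06 for Rara, -0.31 for Rarb, 0.15 for Rarg, -0.06 for Rxra, -0.22 for Rxrb and 0.02 for Rxrg. Rarb and Rxrb were lower in TBBC without overlap, and Rarg was the one tested gene whose TBBC rats were all higher on the brightest probe, by a mean of 0.15. On the other Rarg probe the mean difference was 0.22 and the groups overlapped. Rxrb had -0.08 with slide as a fixed term or on the shared slide, and Rarb had -0.19 as the mean of its probes. Rxrg varied most of these 6, with SD of 0.46 in TBBC and 0.26 in vehicle, and its sign turned in 4 of 20 alternatives. Of 16 retinoic acid targets and retinoid handling genes, 1 fell past the threshold, and the median was -0.08. It was Rarres1, a gene that retinoic acid induces, at -0.76, -1.08 and -0.66 in the TBBC rats against 0.72, 1.02 and 1.55 in the vehicle rats (log2 fold change -1.93 ± 0.24; limma, adjusted p = 0.0388). Stra6, the membrane receptor that takes up retinol, was at -0.53, -1.10 and -1.10 in the TBBC rats and at 0.60, 0.75 and 1.68 in the vehicle rats. Its groups did not overlap, and its log2 fold change of -1.92 ± 0.32 did not pass (limma, adjusted p = 0.0669).

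Of the steroid receptors, Esr1 (estrogen receptor alpha) was at -5.04, -7.11 and -5.78 in the TBBC rats, against -4.00, -4.37 and -4.04 in the vehicle rats. The groups did not overlap. Only TBBC 1 was above background in its group, so the fitted log2 fold change of -1.84 ± 0.50 (limma, adjusted p = 0.132) rests on 2 arrays near background. It was -0.40 with normexp background correction, and -0.90 with slide as a fixed term or on the shared slide. Nr3c1 (glucocorticoid receptor) had -0.36 ± 0.16 (limma, adjusted p = 0.284), with no overlap for its brightest probe, but its 3 probes ran from -0.36 to 0.08, and the value was -0.21 without TBBC 2. Nr3c2 (mineralocorticoid receptor, which governs sodium reabsorption in the distal nephron) had -0.25 (95% interval -0.78 to 0.27). Of 20 tested glucocorticoid and mineralocorticoid targets none passed (limma), with 10 above 0 and 10 below 0. Zbtb16, a glucocorticoid-induced repressor, had 1.08 ± 0.91 and was above background on 1 of 3 vehicle arrays, and Errfi1, an inhibitor of EGF receptor signalling, had -1.02 ± 0.27 (limma, adjusted p = 0.557 and 0.130).

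The estrogen-related receptors are orphan receptors that drive mitochondrial genes together with PGC-1 coactivators. Esrra had -0.03 ± 0.10, the narrowest error of the 32, with a 95% interval of -0.26 to 0.20. Esrrg had -0.25 (95% interval -0.69 to 0.19). None of 17 tested targets of energy metabolism passed (limma), with a median of -0.15. The list holds Esrra itself and the coactivator gene Ppargc1a. Cycs, cytochrome c, had -0.71 ± 0.14, and Pdk4, the kinase that shuts off pyruvate dehydrogenase, had -0.53 ± 0.14 (limma, adjusted p = 0.0856 and 0.130), both without overlap between the groups. The receptors' coactivators and corepressors gave no call among 16 tested (limma), with a median of -0.06. Pprc1, a member of the PGC-1 family, had 0.78 ± 0.34 and Tbl1xr1, a corepressor subunit, -0.40 ± 0.16 (limma, adjusted p = 0.264 and 0.245).

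The remaining NR2 receptors were COUP-TFI (Nr2f1), COUP-TFII (Nr2f2) and EAR2 (Nr2f6), which mostly repress and compete for the sites of other receptors, and the testicular receptors 2 and 4 (Nr2c1 and Nr2c2). Nr2f6 had -0.46 ± 0.14, with no overlap, and did not pass (limma). Its 3 probes gave -0.46, -0.54 and -0.59, and the value was -0.21 with slide as a fixed term or on the shared slide. The other log2 fold changes were -0.08 for Nr2f1, 0.08 for Nr2f2, 0.10 for Nr2c1 and -0.19 for Nr2c2, all with overlap. Nr2f2 is known as a venous endothelial and stromal factor. Its 95% interval was -0.16 to 0.32, while 6 endothelial markers ran from -0.48 to 0.05 with none called.

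**Figure D3:**
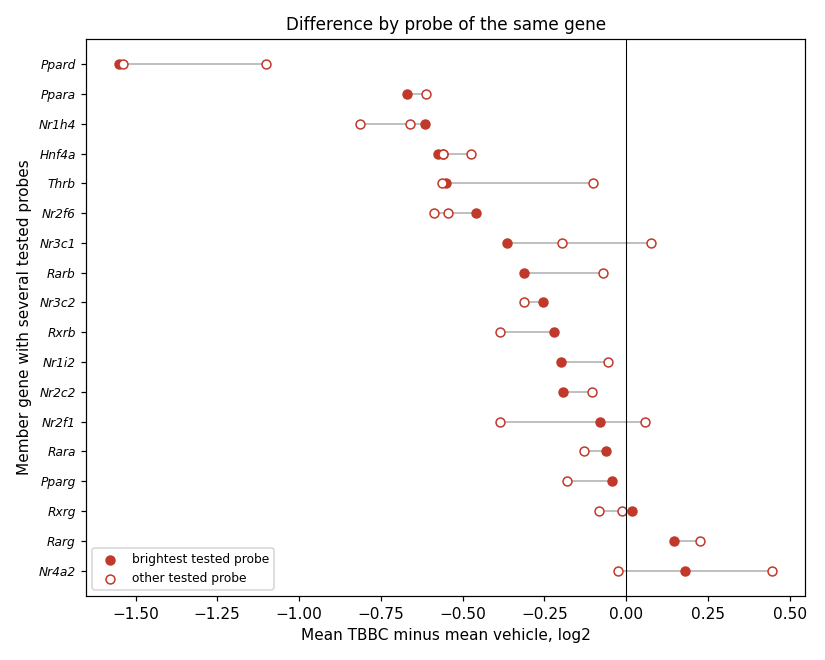
For the 18 receptor genes with more than 1 tested probe, each point is the mean of the TBBC rats minus the mean of the vehicle rats for 1 probe (horizontal axis, log2), filled for the brightest. In 13 genes all probes lay below 0, in Rarg all lay above 0, and in Nr2f1, Nr3c1, Nr4a2 and Rxrg they lay on both sides.

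The NR4A receptors are orphan receptors without a classical ligand whose genes are switched on within minutes by growth factors and stress, as immediate early genes. Nr4a1 (Nur77) was lower in TBBC without overlap, at -0.45 ± 0.13 (limma, adjusted p = 0.139), and lower in all 20 alternatives. Nr4a2 (Nurr1) had 0.18 ± 0.20 (limma, adjusted p = 0.664), its 3 probes ran from -0.03 to 0.45, and on the shared slide its sign turned, to -0.19. Nr4a3 was not tested. Of 24 other immediate early genes tested, 3 rose and none fell past the threshold (limma), with 20 above 0 and a median of 0.83, the highest of the 12 lists. The median was 0.49 without TBBC 2 and 0.53 on the shared slide. Egr1, a zinc-finger factor, was at -1.15, -0.96 and -1.02 in the TBBC rats against -3.39, -3.37 and -3.60 in the vehicle rats, a log2 fold change of 2.41 ± 0.12 (limma, adjusted p = 0.00434). Fos, a subunit of AP-1, had 2.71 ± 0.33, and Btg2, an antiproliferative gene, 1.01 ± 0.13 (limma, adjusted p = 0.0384 and 0.0457). Both had no overlap between the groups. Fosl1, another AP-1 subunit, was above background on all 3 TBBC arrays and on no vehicle array, and was at least 27.7-fold higher, without passing (limma, adjusted p = 0.0605). Atf3, a stress-induced factor, had 2.98 ± 0.55 (limma, adjusted p = 0.0756). The difference between the values of Nr4a1 and those of the other immediate early genes was not tested.

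The promoters of Nr4a1 and Egr1 are shown because these are both immediate early genes and their log2 fold changes lay on opposite sides of 0. They are the 250 bases before each start in RefSeq (GRCr8), both on the plus strand, at chr7:134259888-134260137 for Nr4a1 and chr18:26736828-26737077 for Egr1. Capitals mark the letters CGTCA, the core of a cAMP response element, and the CArG box, the site of serum response factor.
Nr4a1: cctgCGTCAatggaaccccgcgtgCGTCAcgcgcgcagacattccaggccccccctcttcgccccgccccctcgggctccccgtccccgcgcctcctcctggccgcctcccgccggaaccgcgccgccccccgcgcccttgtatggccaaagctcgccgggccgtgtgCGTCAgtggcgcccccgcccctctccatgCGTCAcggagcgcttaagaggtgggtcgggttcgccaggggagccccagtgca
Egr1: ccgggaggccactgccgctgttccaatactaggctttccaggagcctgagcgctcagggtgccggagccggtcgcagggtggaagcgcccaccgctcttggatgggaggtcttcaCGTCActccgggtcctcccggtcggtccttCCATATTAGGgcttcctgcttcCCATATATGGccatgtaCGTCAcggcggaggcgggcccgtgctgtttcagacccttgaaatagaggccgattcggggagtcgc
Searched on both strands, the Nr4a1 window held CGTCA 4 times and no CArG box, and the Egr1 window held CGTCA 2 times and a CArG box 2 times. No marked stretch overlapped another. Among 33469 rat promoters of the same length, 18.2% held CGTCA and 1.497% a CArG box. Of the receptor genes 31 had an entry, with 39 promoters. CGTCA was in 6 of the 39 (in Arnt, Esrrb, Nr2c1, Nr4a1, Nr4a2 and Thrb), and the CArG box in none of them. AGGTCA, the core letters that most nuclear receptors bind, was in 3 of the 39 (in Esrrg, Nr5a2 and Rarg), and 14.1% of all promoters held it. GCGTG, the core to which AhR and ARNT bind, was in 13 of the 39, and 25.9% of all promoters held it. These matches are letters in a window, and no binding was measured.

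**Figure D4:**
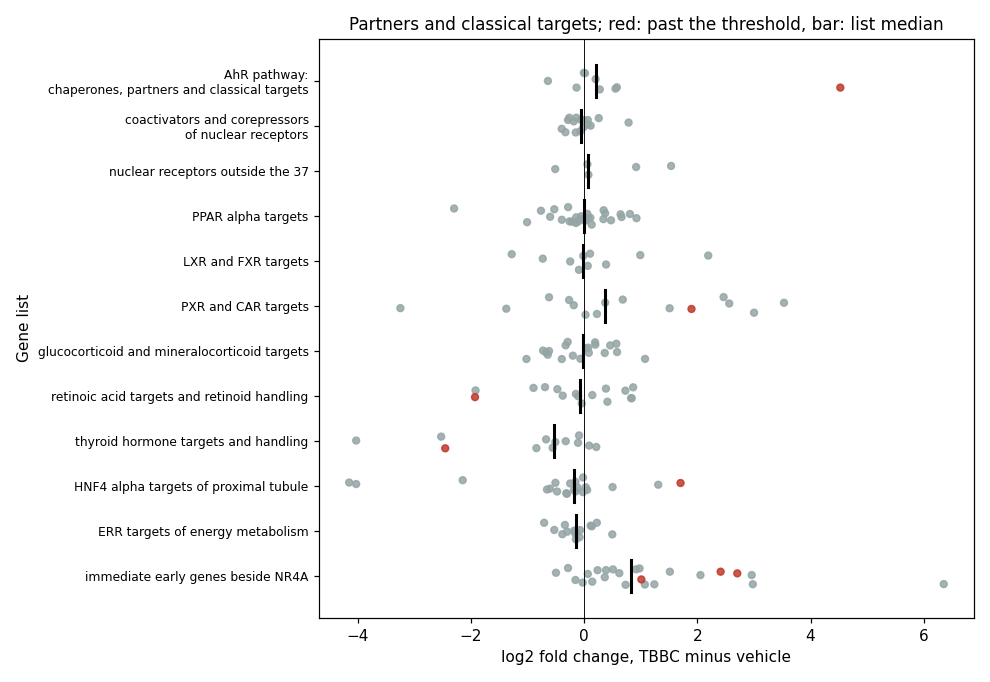
Each point is the log2 fold change, TBBC minus vehicle, of 1 tested gene in a list of partners or classical targets (rows), with the list's median as a black bar and genes past the threshold in red. The lists run from a median of -0.53 for thyroid hormone targets and handling to 0.83 for immediate early genes. Nr0b2 and Esrra, receptor genes that also stand in a list, count in the medians but have no point.

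Over the 12 lists 8 genes were called, and this count was 1, 1 and 2 without vehicle 1, 2 and 3, 8, 3 and 14 without TBBC 1, 2 and 3, 3 with slide as a fixed term and 4 with slide as a random block. Of 5 tested nuclear receptors outside the 37 genes none passed (limma). Both REV-ERB genes were higher in TBBC without overlap, Nr1d1 as above and Nr1d2 at 0.92 ± 0.14 (limma, adjusted p = 0.0581). None of the 12 lists of cell type markers had a called gene (limma). Thick ascending limb markers ran from -1.33 to -0.11, with summed levels of 7.10 to 8.41 in the TBBC rats and 8.58 to 8.78 in the vehicle rats. Summed levels were lower without overlap for collecting duct too, at 6.69 to 6.92 in the TBBC rats and 7.06 to 7.35 in the vehicle rats. Endothelial sums were 6.10 to 6.32 in the TBBC rats and 6.34 to 6.40 in the vehicle rats. Adipocyte sums were 0.10 to 0.37 in the TBBC rats and 0.47 to 0.86 in the vehicle rats. The adipocyte sums rested on 2 of 4 listed markers, as Lep and Plin1 were not tested. The part of these differences in the values of Nr3c2, Nr2f2 and Pparg was not tested. Myeloid markers ran from -0.16 to 0.61, with summed levels of 6.10 to 7.25 in the TBBC rats and 6.26 to 6.57 in the vehicle rats. Markers of liver, where several of these receptors and targets are abundant, ran from -3.94 for Alb to 4.87 for Fgb, with a median of -0.79. Their summed levels, opposite in direction to that median, were 3.24 to 6.97 in the TBBC rats and 0.43 to 3.14 in the vehicle rats, and their part in the values of Ttr, Fabp1 and Cyp2c11 was not tested.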

How the data were processed

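The authors' scanner files, deposited per rat, give an intensity for each spot, which Agilent Feature Extraction had background-subtracted and detrended. Its version is 10.7.1.1 in the file headers and 10.7 in the submitters' processing notes. The deposited value table holds a linear ratio, which lay within 0.3% of that signal over the array's 75th percentile; its column medians were 0.113, 0.107 and 0.114 for TBBC 1 to 3 and 0.111, 0.112 and 0.113 for vehicle 1 to 3. Which test the authors ran is not stated in the sources.

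Here, 1439 of 62976 spots were dropped as controls. Transcript accessions, without versions, were matched to RefSeq genes of assembly GRCr8 (28206 probes named). The headers name build rn4, so probes have no coordinates here. The processed signal was divided by the array's 75th percentile and put on the log2 scale. Outlier-flagged spots (0 to 9 per array) were left out, and none was saturated. Testing required a probe to lie well above background on all unflagged arrays of 1 or both groups, with 2 or more such arrays in each. Groups came from the sample titles. The two-sided test was limma 3.58.1 in R 4.3.3, run as lmFit then eBayes, and p-values were adjusted by Benjamini-Hochberg over all transcripts (threshold 0.05). Unnamed probes stood for themselves. Where a probe was above background on no array of a group, the fold is a bound: the bright mean is set against a floor for the dim arrays, each taken as its lowest signal above background or the probe's own signal if higher. With 3 arrays per group, their number limits the precision.

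Values in every rat are given for receptor genes past the threshold, receptor genes without overlap that differed at least 1.5-fold, and the 8 receptor genes with the largest log2 fold changes. From each list of textbook partners, targets or markers, genes past the threshold and the 2 with the largest log2 fold changes were named, and markers by the extremes of a list. The receptors and lists were chosen with earlier results of these data known. Lists share some genes, among them Pdk4 and Ttr. Promoters came from RefSeq (31 of the 37 genes matched). Alternatives were other scalings, normexp (offset 50) on median signals, the authors' ratio, other filters and probe summaries, array weights, a trended and robust eBayes, slide in the model (fixed, or random with statmod 1.5.0), the shared slide, the replicate number as a block, and each array left out. The procedure was tested on simulated data. These had the same spread in both groups and no slide difference, so the simulation does not cover unequal spreads or the slides. Deviations of same-numbered rats from their group means correlated at -0.09, 0.03 and -0.07. This gave no sign that the numbers pair the rats, but it cannot exclude a pairing.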

Additional observations from a re-analysis of the deposited data

How the results depend on the processing

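The count of receptor genes called was 1 and became 3 with normexp background correction and 3 with eBayes trend and robust, where Nr1h4 and Hnf4a joined Ppard. It was 0 with slide as a fixed term, 0 on the shared slide, 0 with the replicate block, and 0 to 1 with 1 array left out. For all transcripts the count was 175, and it was 761 with normexp, 1087 with trend and robust, 52 with no filter on dim probes, 48 with slide as a fixed term (43 higher, 5 lower, against 84 higher and 91 lower), 307 on the shared slide (263 higher, 44 lower; 1 TBBC array, assumed to vary like the vehicle arrays), 0 with the replicate block, and 6 to 274 with 1 array left out. List genes called were 8, against 3 with slide fixed, 4 with slide random and 1 to 14 with 1 array left out. The cause was not tested. With the replicate block the Ppard adjusted p (limma) was 0.109. The number of receptor genes below 0 stayed between 22 and 28, and the detected count was 35 with 1 array of a group in place of all.

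Of the receptor log2 fold changes under alternatives, 601 kept sign and side of the threshold and 28 changed sign, all of genes that did not pass. With normexp these were Ahr (0.0375), Rxra (0.0110), Nr1h2 (0.000123) and Nr2f2 (-0.0397), and with the mean of tested probes Rxrg (-0.0260). With slide fixed, and equally on the shared slide, they were Pparg (0.0557), Nr1h2 (0.148), Nr2c1 (-0.0181) and Nr4a2 (-0.186). With 1 array left out, the value ran from -0.211 (without vehicle 1) to 0.0937 (vehicle 2) for Nr2f1, from -0.138 (TBBC 3) to 0.0394 (TBBC 2) for Rara, from -0.169 (vehicle 1) to 0.0343 (vehicle 2) for Pparg, from -0.159 (vehicle 2) to 0.158 (vehicle 1) for Nr0b2, from -0.129 (TBBC 1) to 0.0414 (TBBC 2) for Nr1h2, from -0.216 (TBBC 3) to 0.242 (TBBC 2) for Rxrg, from -0.00903 (vehicle 3) to 0.250 (vehicle 1) for Nr2c1, and from -0.0172 (TBBC 3) to 0.363 (TBBC 1) for Nr4a2. Errors are wide for genes near background, such as Esr1.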
